A study of Mus musculus with 4 samples.

Results

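The genes described here are 9 genes of the blood stem cell surface and of endothelial-type cells: Procr, Emcn, Esam, Vldlr, Slamf1, Cd34, Cd48, Fgd5 and Paqr5. They were taken by symbol from the 32285 genes of 4 deposited single-cell count matrices, and all 9 were found in each. The members were chosen from measured values of these libraries, mainly lower levels with Ikk2-CA and a partly higher Emcn in the double mutant, so every ratio of Ikk2CA or of the double mutant below is a description and carries no test.

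The libraries came from mouse bone marrow sorted as LSK (lineage-negative, Sca-1+, Kit+), the gate that holds stem cells and early progenitors. The control mice carried Vav1-iCre/+, a recombinase active in blood-forming cells, and no other mutant allele. The Ikk2CA mice carried Vav1-iCre/+ with Ikk2-CA flox/+, an always-on kinase upstream of NF-κB, the Jak2V617F mice Vav1-iCre/+ with Jak2 V617F flox/+, and the double mutants all of these alleles. The floxed lines had also been crossed to an NF-κB-responsive EGFP reporter, per the series' design text. Marrow of 5 mice aged 8 to 12 weeks was pooled for each genotype and gave 1 library, and the spread between animals is unknown.

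After filtering, 37344 of 41674 cell barcodes were kept, between 5268 (double) and 14156 (Jak2V617F) per library. Median depth ran from 10606 UMIs (unique molecular identifiers, counted transcripts) per control cell to 24915 per double-mutant cell, on sums of 102362297 to 197836491 UMIs per library. Levels are given as CPM, UMIs of the gene scaled to the UMI total of the library, and every interval is a 95% interval of counting error only. The sort markers did not move together: the Sca-1 gene Ly6a stood at 106 CPM in control, 233 in Ikk2CA, 138 in Jak2V617F and 191 in double, while Kit stood at 149, 87.6, 175 and 93.5 CPM. Values for the 4 libraries are always given in that order. Cell barcodes shared between 2 libraries numbered 16 to 64 per pair.

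Several of these genes mark long-lived stem cells. Procr encodes the endothelial protein C receptor, and Slamf1 and Cd48 encode related SLAM-family receptors, of which the first is carried by stem cells and the second mostly by their progeny. Emcn (endomucin) and Cd34 encode sialomucins, and Esam encodes a junctional adhesion molecule, all of them shared between stem cells and vessel endothelium. Vldlr is a receptor for lipoproteins and reelin, Fgd5 is an exchange factor for Cdc42, and Paqr5 is a membrane progestin receptor.

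Slamf1 and Cd48 are neighbours in the SLAM gene cluster. Cd48 (chromosome 1, 171682009 to 171705258, GRCm38) ends 61.9 kb before Slamf1 (171767127 to 171801184), on the same strand, with 0 protein-coding genes between them. RefSeq start-site windows, build GRCm38.p6, were found for 8 of the 9 members. Printed here are the bases before the start for Emcn and Vldlr, which had low ratios in Ikk2CA, and for the SLAM neighbours, which differed in opposite directions in that library. The windows end at the RefSeq start, or earlier where a GENCODE exon begins.
Emcn (chr3:137340828-137341066, + strand, 239 bases): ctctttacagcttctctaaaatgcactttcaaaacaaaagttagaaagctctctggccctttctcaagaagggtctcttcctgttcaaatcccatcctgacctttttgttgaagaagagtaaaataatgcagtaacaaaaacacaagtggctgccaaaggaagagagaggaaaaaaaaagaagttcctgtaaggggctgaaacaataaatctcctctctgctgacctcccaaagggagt
Vldlr (chr19:27216234-27216483, + strand, 250 bases): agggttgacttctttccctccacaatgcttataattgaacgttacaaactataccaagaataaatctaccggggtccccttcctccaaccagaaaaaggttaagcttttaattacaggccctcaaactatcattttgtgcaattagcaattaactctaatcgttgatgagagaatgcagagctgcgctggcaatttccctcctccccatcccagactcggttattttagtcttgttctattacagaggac
Slamf1 (chr1:171766882-171767126, + strand, 245 bases): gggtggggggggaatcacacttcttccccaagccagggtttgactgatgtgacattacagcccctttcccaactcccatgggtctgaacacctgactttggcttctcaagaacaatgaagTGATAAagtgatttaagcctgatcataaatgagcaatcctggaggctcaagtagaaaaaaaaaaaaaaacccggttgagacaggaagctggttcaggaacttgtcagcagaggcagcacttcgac
Cd48 (chr1:171681742-171681991, + strand, 250 bases): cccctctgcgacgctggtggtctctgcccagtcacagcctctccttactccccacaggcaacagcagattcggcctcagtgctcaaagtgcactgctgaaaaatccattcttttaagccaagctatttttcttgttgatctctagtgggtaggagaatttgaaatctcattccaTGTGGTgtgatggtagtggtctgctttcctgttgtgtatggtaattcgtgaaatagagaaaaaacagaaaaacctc
Capitals mark a match to a searched motif, on either strand. Within the 250 bases before each start, the letters AGATAA and those of TGATAA were searched for GATA factors. Further motifs were AGGAAGT for ETS factors, TGTGGT for RUNX factors, TTCNNNGAA for STAT factors and the kappa-B consensus. The 2 matches lay in different windows and overlapped no other match. TGATAA stood in Slamf1, 130 bases before the start, and in 7.94% of 32851 mouse windows of that length. TGTGGT stood in Cd48, 76 bases before the start, and in 14.0% of all windows. The other 4 motifs were in 0 of the 9 member windows (Vldlr has 2 starts), against 3.90% (kappa-B) to 9.99% (AGATAA) of all windows.

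The sialomucins Emcn and Cd34 and the lipoprotein receptor Vldlr were lower in Ikk2CA than in the other 3 libraries, as were 5 further members. Emcn was at 20.8 CPM in control, 2.94 in Ikk2CA, 11.3 in Jak2V617F and 6.94 in double, on 2128, 582, 2066 and 987 UMIs. All 3 mutant libraries lay below control, Ikk2CA lowest. The ratio of Ikk2CA to control was 0.142 (interval 0.129 to 0.155). In pooled libraries, fewer cells of a type and less RNA per cell cannot be told apart from such sums, and levels within cell classes follow further on. Cd34 was at 429, 190.4, 331 and 264 CPM, the same order of libraries, with an Ikk2CA ratio of 0.444 (0.438 to 0.450). Vldlr was at 32.0, 6.21, 26.3 and 11.3 CPM, and its Ikk2CA ratio was 0.194 (0.182 to 0.207). For Emcn, Cd34 and Vldlr alike, the double mutant lay nearer to Ikk2CA than to control.

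Procr was at 26.1, 9.40, 25.7 and 11.7 CPM, so the 2 libraries without Ikk2-CA lay close together and both libraries with it lay lower. Its Ikk2CA ratio was 0.360 (0.339 to 0.382), and its Jak2V617F ratio of 0.986 (0.940 to 1.03) did not differ from 1 beyond counting error. Paqr5 was at 20.6, 3.53, 12.5 and 3.76 CPM, and Fgd5 at 4.37, 0.748, 4.79 and 1.44 CPM. Fgd5 thus had the same high and low libraries as Procr, on 447, 148, 876 and 205 UMIs. Its Ikk2CA ratio was 0.171 (0.141 to 0.207) and that of Paqr5 0.172 (0.157 to 0.187).

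Esam and the SLAM pair behaved differently. Esam was at 13.9, 6.62, 17.4 and 11.9 CPM, with Jak2V617F above control and double 0.855 of control (0.796 to 0.918), which relative to the median gene of that comparison was 0.0095 on the log2 scale. Slamf1 was at 4.15, 2.56, 8.21 and 6.05 CPM: lower than control in Ikk2CA (ratio 0.616, 0.540 to 0.702), 1.98-fold higher in Jak2V617F (1.77 to 2.21) and 1.46-fold higher in double (1.30 to 1.64). Both libraries with Jak2 V617F were thus above control for Slamf1. Cd48 was at 141, 184, 144 and 205 CPM, with both Ikk2-CA libraries above the others, 1.31-fold (1.28 to 1.34) and 1.46-fold (1.43 to 1.49) of control.

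**Figure D1:**
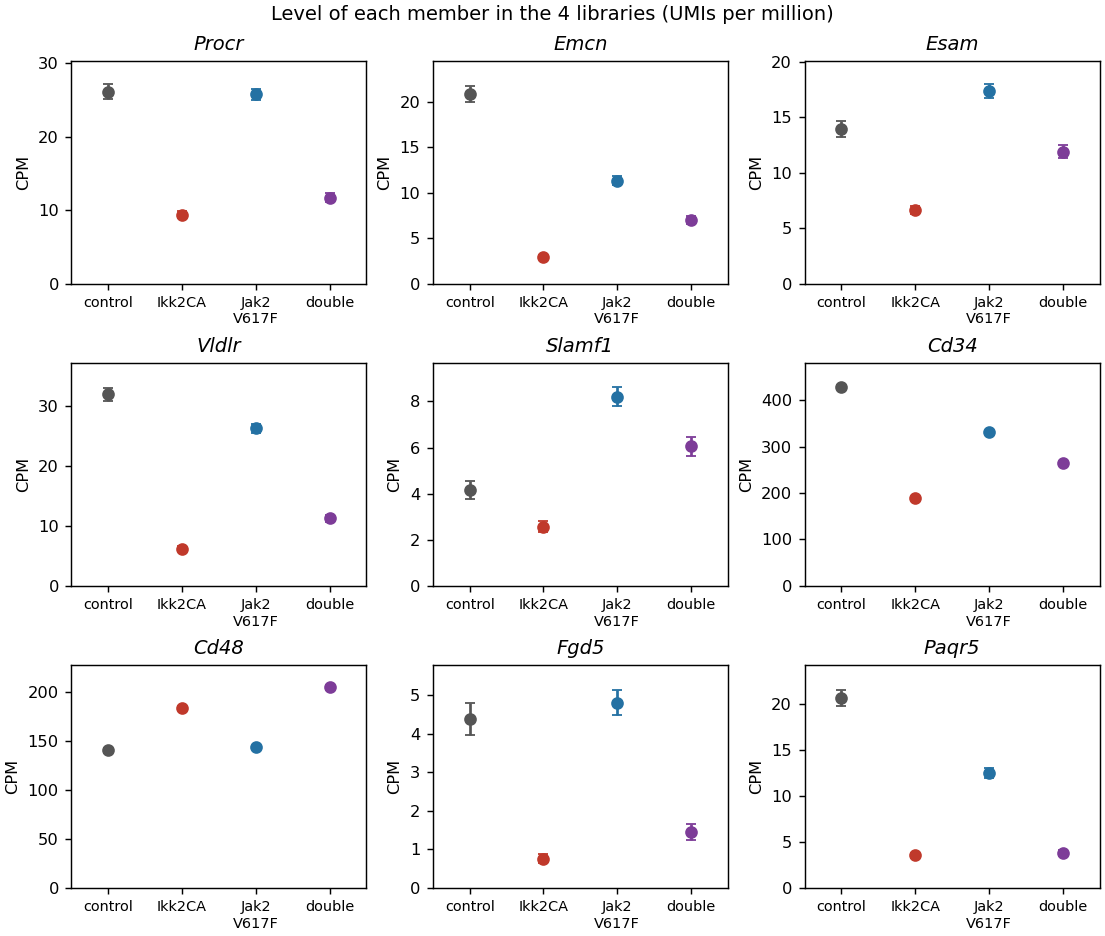
Level of each of the 9 genes (y axis, CPM, from 0) in the 4 libraries (x axis); points are 1 library each and bars are 95% Poisson intervals of the UMI sum, often smaller than the point. Emcn ran from 2.94 CPM in Ikk2CA to 20.8 CPM in control, while Cd48 was highest in the double mutant, at 205 CPM.

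Of the 7 members with at least 10 CPM in control or Ikk2CA, 6 were at most 0.5 of control in Ikk2CA and 0 were at least 2-fold higher. Across all 8377 genes with that level, 3.37% were lower and 2.14% higher by that much, and since the contrast chose the members, nothing is read from the difference. The median log2 ratio of the 9 members was −1.47, and that of all genes −0.23. Relative to that median gene, Esam (−0.84) and Cd34 (−0.94) were within 2-fold and Emcn was at −2.59. Slamf1 and Fgd5 did not pass the level filter, and a gene could pass it through control alone.

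With Jak2 V617F alone, 0 of 7 members passed 2-fold in either direction, against 0.452% of genes lower and 0.297% higher. Emcn and Paqr5 were the 2 lowest members, at 0.544 (0.512 to 0.578) and 0.607 (0.571 to 0.644) of control. The median member stood at −0.02 and the median gene at −0.0044 on the log2 scale. In the double mutant against control, 4 of 7 members were lower by at least 2-fold (Paqr5 0.183, Emcn 0.334, Vldlr 0.352 and Procr 0.448 of control) and 0 higher, against 2.44% and 0.832% of genes. Against Jak2V617F, 3 of 7 were lower in the double mutant (Paqr5 0.301, Vldlr 0.427 and Procr 0.454) and 0 higher, against 1.13% and 0.715% of genes. Cd48 was the only one of the 9 with a ratio above 1 there, 1.43 (1.40 to 1.45). These comparisons share libraries with each other.

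The question put to the double mutant was which of the lower levels in Ikk2CA were nearer to control when Jak2 V617F was present too. Of 9 members, 9 had a higher level in double than in Ikk2CA, and for 8 the interval of the ratio lay above 1. Across the 282 genes at most 0.5 of control in Ikk2CA, 247 were likewise higher in double, so this direction was common to most such genes. Those genes were picked for a low Ikk2CA value, as most members were. Such a choice by itself favours a higher value in another library. Emcn was 2.36-fold higher (2.13 to 2.62), Slamf1 2.36-fold (2.12 to 2.64), Fgd5 1.93-fold (1.55 to 2.40), Vldlr 1.81-fold (1.68 to 1.95) and Esam 1.80-fold (1.67 to 1.93). Cd34 was 1.39-fold, Procr 1.24-fold and Cd48 1.11-fold higher. Paqr5 was the exception, with a ratio of 1.06 (0.950 to 1.19). Of the 5 members with at least 10 CPM in either library, 0 passed 2-fold, against 0.348% of genes higher and 2.06% lower. Emcn and Slamf1 passed 2-fold below that level. In cells of at least 5000 UMIs with no Xist UMI the log2 ratio was −0.19 for Procr and −0.52 for Paqr5 (0.31 and 0.09 in the library sums), and without lineage clusters it was −0.11 for Procr. Cells with no Xist UMI were 2998 of 7217, 7163 of 9460, 12749 of 12795 and 3630 of 5122 cells of that depth. The share of cells with Xist thus differed between the libraries and cannot be told apart from genotype in any comparison here.

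The share of the log2 loss that was regained says how far each gene came back, with 0% for the Ikk2CA level and 100% for the control level. Esam regained 78.9%, Emcn 43.9%, Cd34 40.4%, Vldlr 36.3%, Procr 21.3% and Paqr5 3.56%. Fgd5, at less than 10 CPM, regained 37.2%. Across the same 282 genes the median was 32.3% (quartiles 15.3% to 44.8%), and 55 of them (19.5%) regained at least 50%, as did 1 of the 6 members, Esam. The share of Emcn was at the 74.1 percentile of those genes, so its partial return was within the range that lower genes showed in general, although its fold change was the highest of the 6 members in that pool. Slamf1, outside the pool, passed the control level.

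**Figure D2:**
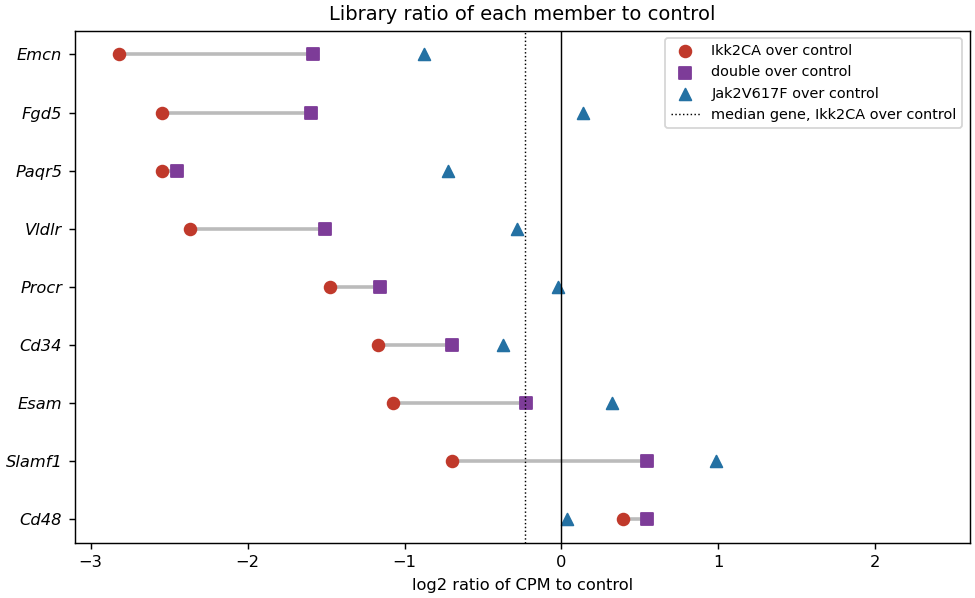
Log2 ratio of library CPM to control (x axis) for each gene (y axis), for Ikk2CA (circle), double (square) and Jak2V617F (triangle); the grey line joins Ikk2CA to double and the dotted line is the median gene in Ikk2CA. The grey line is long for Emcn (−2.82 to −1.58) and short for Paqr5 (−2.54 to −2.45).

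Detection per cell was compared after each cell had been thinned to 5000 UMIs, which left out 838, 405, 1361 and 146 shallower cells. An Emcn UMI was found in 11.7%, 1.85%, 6.12% and 4.37% of cells, a Vldlr UMI in 15.01%, 3.40%, 13.0% and 6.33%, and a Paqr5 UMI in 10.7%, 1.998%, 6.76% and 2.25%. The order of the libraries was the same as for the levels. Without thinning, Emcn was found in 21.6% of control cells. Cd34 was found in 81.0%, 51.4%, 74.6% and 67.9% of thinned cells and Cd48 in 40.0%, 54.5%, 43.2% and 53.1%. Procr was found in 13.6%, 5.71%, 12.7% and 7.58%, Esam in 7.80%, 3.88%, 9.004% and 6.52%, Slamf1 in 2.12%, 1.45%, 3.60% and 2.69%, and Fgd5 in 2.69%, 0.613%, 2.64% and 1.07%. As a background, 0 of 123 control B cell-like cells had an Emcn UMI, which allows up to 2.44%, at a median of 14764 UMIs before thinning. In the Ikk2CA library, 1 of 1238 such cells did (0.0808%, 15921.5 UMIs), so the 1.85% over that whole library is above what this cell type showed.

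At least 1 of the 7 members other than Cd34 and Cd48 was found in 45.5%, 15.7%, 40.7% and 25.03% of thinned cells, and at least 2 in 14.8%, 2.71%, 10.9% and 5.10%. Both counts were lowest in Ikk2CA and intermediate in the double mutant. Cells with a Slamf1 UMI and no Cd48 UMI were 1.57%, 1.03%, 2.77% and 1.52%. They are not a count of stem cells, since a Cd48 transcript can be missed at this depth. Of the Slamf1 UMIs, 15.3%, 29.1%, 18.3% and 27.7% lay in megakaryocyte-like cells, by the classes described below. The stem cell-like class held 22.4%, 11.9%, 16.2% and 14.1% of them.

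Members were found in the same cells unequally. In control, Esam and Slamf1 were found together in 28 cells, 2.35 times the number expected from their separate shares, Procr and Fgd5 in 54 cells (2.04 times) and Procr and Emcn in 171 cells (1.49 times). Cd48 was found less than expected with Esam (0.568), Procr (0.632) and Slamf1 (0.653). Vldlr and Cd48 were near 1, at 0.951. In Ikk2CA the ratio was 3.39 for Procr with Esam (71 cells) and 2.88 for Procr with Vldlr (53 cells), against 1.59 and 1.43 in control. Expected numbers use shares over the whole library, so the ratio also rises with the share of cells that carry neither gene. The libraries differed in make-up, as given below, and its part in these ratios was not tested. In the double mutant Procr was found with Esam in 51 cells, 2.02 times the expected number. Only pairs with at least 10 expected cells are given, 35 of 36 in control and 19 of 36 in Ikk2CA.

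**Figure D3:**
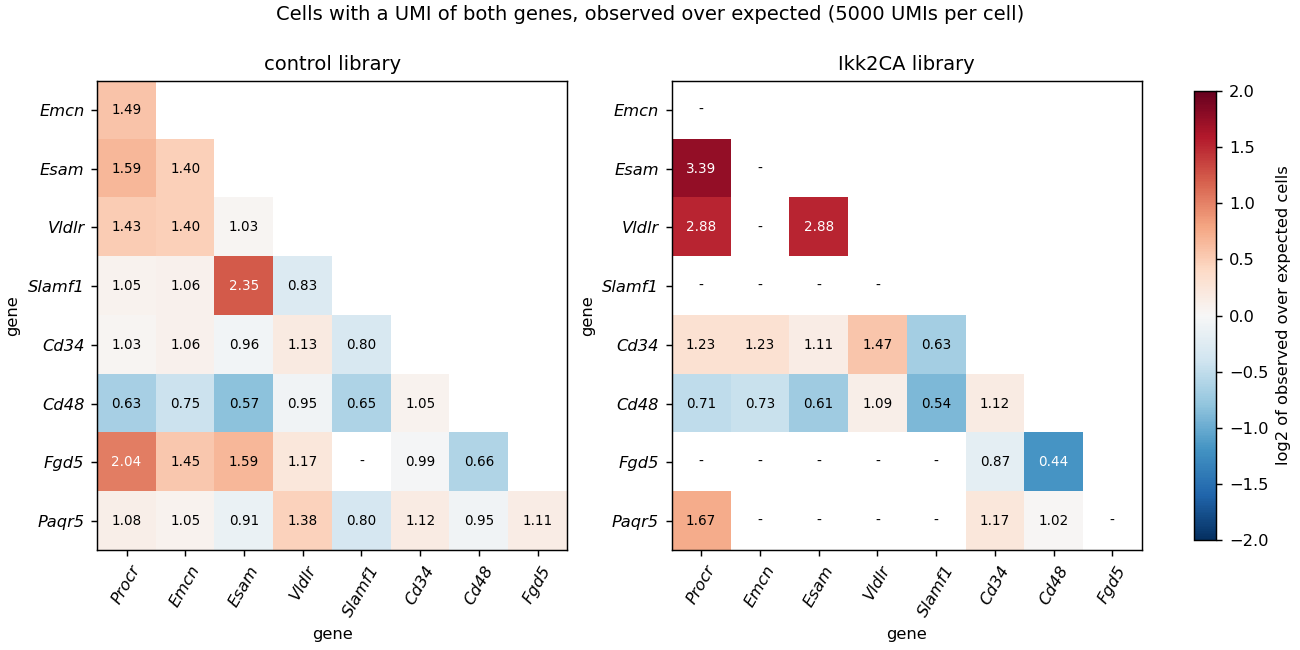
Observed over expected number of thinned cells with a UMI of both genes (numbers in the squares, colour on a log2 scale) in the control and Ikk2CA libraries; a dash marks pairs with under 10 expected cells. Cd48 was below 1 with Procr, Esam and Slamf1 in both libraries, and Procr with Esam was 1.59 in control and 3.39 in Ikk2CA.

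Cells were next sorted into classes, since the libraries differed in make-up: clusters named B cell-like held 1.89%, 14.5%, 0.671% and 0.949% of cells and those named plasmacytoid dendritic-like 0.348%, 18.8%, 0.516% and 4.48%. The summed level of the 9 B cell markers was 270.4, 1264, 87.0 and 109.8 CPM, none at 0. In clusters of all 4 libraries together, many held mainly control and Jak2V617F cells or mainly cells of the libraries with Ikk2-CA. Cluster 2, for example, held 841, 2, 1536 and 95 cells, and cluster 11 held 0, 814, 6 and 874. Each cell was therefore given the class of its nearest control cells instead. The 9 members had been left out of the genes used for this. The stem cell-like class (4 of 10 stem cell markers among its 25 leading genes, among them Mllt3, Trim47 and Pdzk1ip1, and more stem cell markers than of any other type among its top 10) held 696, 310, 1606 and 394 cells, or 8.64%, 3.14%, 11.3% and 7.48%, at median depths of 8562, 11445.5, 6692.5 and 15385 UMIs. Those markers were counted in control cells only. In joint clusters the cells of this class lay mostly in clusters numbered 4 and 1 in control, 12 in Ikk2CA, 1 in Jak2V617F, and 10 and 1 in double. Cluster 12, unnamed and with 0 stem cell markers among its 25 leading genes, held 76.1% of the Ikk2CA cells of the class. Clusters 4 and 10 were unnamed too. Cluster 1, the joint stem cell-like cluster, held 4.52%, 0.537%, 21.7% and 2.81% of all cells, unlike the shares of the class.

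Within this class some members were near control in Ikk2CA and others were lower. Procr was at 96.1, 84.2, 76.8 and 61.4 CPM, Esam at 53.8, 55.9, 53.5 and 51.2 CPM, and Fgd5 at 15.8, 17.99, 15.97 and 9.68 CPM. The Ikk2CA ratios of these were 0.877 (0.762 to 1.01), 1.04 (0.869 to 1.24) and 1.14 (0.822 to 1.57), and that of Slamf1 was 1.07 (0.761 to 1.49), all with 1 inside the interval, which does not show that the levels were equal. Emcn was at 42.3, 22.1, 21.2 and 24.4 CPM, with every mutant library near the same lower level. Its Ikk2CA ratio was 0.522 (0.402 to 0.672), against 0.142 for the library. Vldlr had a ratio of 0.581 (0.424 to 0.788), Cd34 of 0.446 (0.400 to 0.496) and Paqr5 of 0.260 (0.160 to 0.405), and the median gene in the class had 0.906.

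In Jak2V617F cells of this class, Emcn (0.501 of control, 0.421 to 0.597), Paqr5 (0.560, 0.446 to 0.703), Cd34 (0.736, 0.690 to 0.784) and Procr (0.7997, 0.721 to 0.888) were below control beyond counting error. Cd48 (1.74, 1.41 to 2.17), Vldlr (1.46, 1.22 to 1.75) and Slamf1 (1.30, 1.02 to 1.67) were above it, and the intervals of Esam and Fgd5 held 1. In the double mutant against Ikk2CA, Emcn was at 1.10 (0.838 to 1.46) within the class, against 2.36 for the library. Procr (0.729, 0.626 to 0.848) and Fgd5 (0.538, 0.374 to 0.773) were below 1 there, while Cd34 was at 1.23 (1.10 to 1.38) and Cd48 at 1.69 (1.32 to 2.18). So Procr and Fgd5 were higher in the double library than in Ikk2CA and lower within the class. The stem cell-like class was 3.14% of Ikk2CA cells and 7.48% of double-mutant cells; its part in the library ratios was not tested.

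The unnamed class led by Ltb, Procr and Hlf held a like share of each library, 11.8%, 10.4%, 11.8% and 10.6%, at median depths of 8175, 11277, 6543 and 14252 UMIs. In joint clusters its cells lay mostly in cluster 4 in control, 12 in Ikk2CA, 1 and 4 in Jak2V617F, and 10 in double. Emcn was at 43.6, 12.1, 21.1 and 17.3 CPM in it, and double was 1.43-fold above Ikk2CA (1.13 to 1.82). Cd48 was at 56.1, 183, 76.8 and 142 CPM, 3.27-fold higher in Ikk2CA than in control (2.96 to 3.62). In the stem cell-like class the same Cd48 ratio was 1.30 (0.971 to 1.73). Emcn was higher in double than in Ikk2CA in 10 of the 10 classes with at least 20 Emcn UMIs over both libraries, and in 6 of them the interval lay above 1. Paqr5 was higher in 5 of 10. With the same UMI limit per gene, the ratio was below 1 in 0 of 11 classes for Vldlr and 0 of 9 for Slamf1. It was below 1 in 2 of 9 for Esam, 3 of 13 for Cd34, 1 of 4 for Fgd5, 6 of 13 for Cd48 and 9 of 12 for Procr. All classes come from the same 2 libraries, and Emcn was chosen partly on this contrast, so nothing is read from these counts.

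With every class weighted by its share of control cells, the log2 ratio of Ikk2CA to control was −1.99 for Emcn (−2.82 in the library sums), −2.48 for Paqr5 (−2.54), −1.73 for Vldlr (−2.37), −1.28 for Fgd5 (−2.55), −0.88 for Cd34 (−1.17), −0.76 for Procr (−1.47), −0.43 for Esam (−1.07) and −0.41 for Slamf1 (−0.70), and 0.52 for Cd48 (0.39). Paqr5 moved least of the 8 lower members. For double over Ikk2CA the weighted log2 ratio was 0.59 for Emcn (1.24 in the library sums), 0.68 for Slamf1 (1.24), 0.22 for Esam (0.85), −0.07 for Fgd5 (0.95) and −0.09 for Procr (0.31). Fgd5 and Procr thus changed sign.

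**Figure D4:**
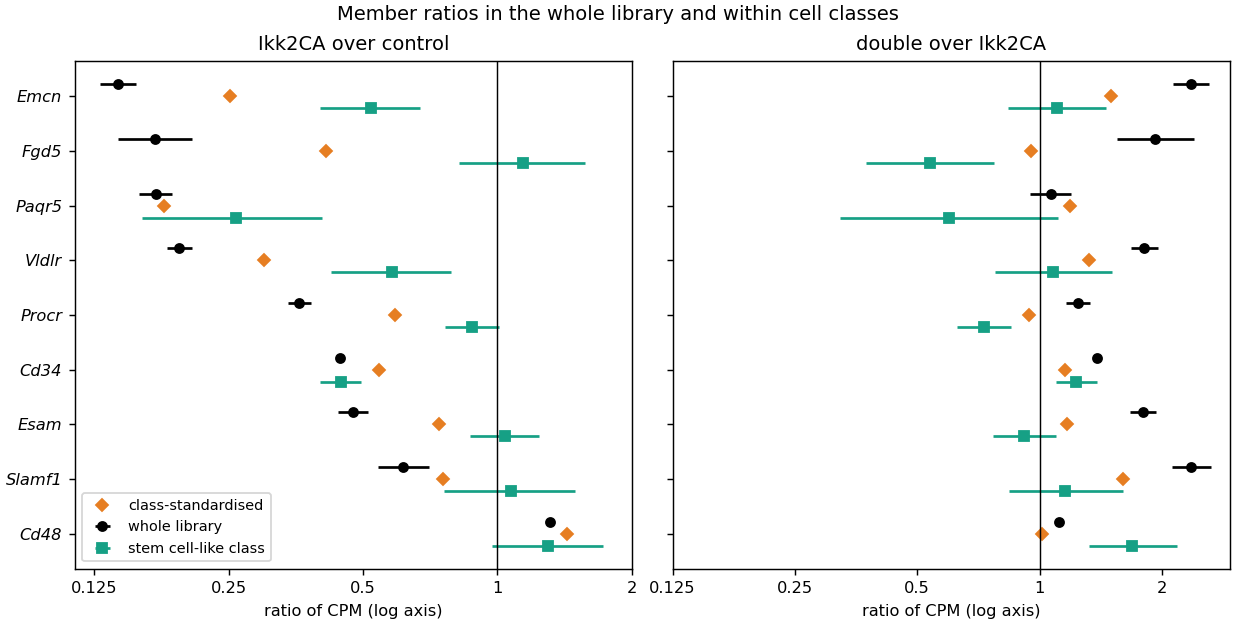
Ratio of CPM (x axis, log scale) for each gene (y axis) in Ikk2CA over control (left) and double over Ikk2CA (right), for the whole library (circle), class-standardised sums (diamond) and the stem cell-like class (square); bars are 95% intervals of counting error, not drawn for the standardised sums. On the left the class intervals of Esam, Slamf1 and Fgd5 held 1 and Emcn was at 0.522; on the right Emcn was at 2.36 for the library and 1.10 within the class.

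Across 66 cluster-by-library profiles the members ran together to different degrees, as a description, since profiles of 1 library share depth and composition. Pearson's r of log2(CPM + 1) was 0.91 for Emcn with Vldlr, 0.87 for Procr with Fgd5 and −0.58 for Slamf1 with Cd48. Outside the members, the profile of Emcn was like Hlf (0.93) and Nkx2-3, that of Vldlr like Hlf (0.95) and Adgrl4, and that of Procr like Nceh1 (0.88), Stxbp4 and Hlf. Esam was like Trim47 (0.93) and Slc18a2. Paqr5 was most like Shisa8 (0.89), Wfdc17 and Gm5111. Cd34 was nearest to Kcnk12 (0.92), Cd27 and Plppr3, Fgd5 to Nceh1 (0.84), Hlf and Stxbp4, Slamf1 to Nt5c3 (0.82), Plxnc1 and Apoe, and Cd48 to BC035044 (0.80), Bex6 and Plac8.

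Related genes were counted by list, and a gene was measured when it reached 10 CPM in any library. Across all 8377 genes with at least 10 CPM in control or Ikk2CA, 3.37% were at least 2-fold lower in Ikk2CA and 2.14% higher. The lists were chosen with earlier results of these data known, so nothing is read from the difference between their counts and these shares. Of 12 measured junction and endothelial-type adhesion genes, 6 were at most 0.5 of control in Ikk2CA and 0 were at least 2-fold higher, including members, with a median log2 ratio of −0.89. Of the 9 that are not members, 3 were lower by that much, and their median was −0.48. Alcam (32.2, 11.7, 25.4 and 11.5 CPM), which binds CD6, and F11r (13.0, 5.47, 14.1 and 10.9 CPM), a junctional adhesion molecule, were lowest among those that are not members. Of 23 other surface genes of stem cell gates, 5 were lower by at least 2-fold and 1, Ly6a, was higher, with a median of −0.67. Flt3, the receptor of the lymphoid-primed gate, was at 144, 59.4, 92.3 and 51.2 CPM. The 2 SLAM genes higher by at least 2-fold in Ikk2CA were Slamf6 (4.75, 20.6, 1.98 and 1.36 CPM) and Slamf7 (2.25, 13.6, 1.03 and 0.506 CPM), of 6 measured, whose median was 0.13. Slamf6 and Slamf7 reached 10 CPM in Ikk2CA only, so the level filter itself favoured a call of higher, and nothing is read from that count. The 5 SLAM genes that are not members had a median of −0.12. Of the lipoprotein receptor family, 2 of 9 were lower (Vldlr and Lrp5, at 19.0, 9.18, 18.5 and 11.6 CPM). In the PAQR family 1 of 5 was lower, Paqr5, in the protein C pathway 1 of 4, Procr, in the FGD and Cdc42 list 1 of 12, Fgd4, and in the CD34 family 2 of 2, Emcn and Cd34. The median log2 ratios of these 5 lists were −0.57, −0.47, −0.81, −0.18 and −1.996, against −0.23 for all genes. Members chosen on this contrast enter these medians, so nothing is read from the difference. Without members the medians were −0.45 (lipoprotein), −0.34 (PAQR), −0.74 (protein C) and −0.18 (FGD and Cdc42). The CD34 list held 0 measured genes other than members.

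The endothelial label was checked against defining markers. Cdh5 was at 0.0782, 0.394, 0.0492 and 0.0211 CPM, and the summed level of the 8 endothelial markers was 17.97, 8.87, 19.4 and 13.1 CPM, of which Tie1 alone gave 14.9, 6.77, 16.7 and 11.4 CPM. Sox17 was at 0 in control and Cldn5 at 0 in Ikk2CA. The label therefore describes where these genes are also known and not endothelial cells in these libraries.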

How the data were processed

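Per the file headers, the authors deposited whole UMI counts per gene and barcode, written by Cell Ranger 4.0.0; the series' design text names version 3.0.1, and the submitters' processing notes name mm10 and Seurat 4.0.0. Members and lists were chosen with earlier results of these data known. Barcodes with 500 to 7500 genes and under 10% mitochondrial UMIs were kept, the filter of the design text. UMIs were summed per library and scaled to CPM. A gene was compared when it reached 10 CPM in 1 or both libraries. No test was made, since every genotype is a single library. Intervals are 95%: exact Poisson for levels, exact conditional binomial for ratios and Clopper-Pearson for shares, counting error only, and a share of 0 is limited by 3 counts.

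Clustering used 2000 variable genes without the members, 30 components, 15 neighbours and Leiden resolution 1. Named clusters had at least 3 markers among 25 leading genes, and more of them among the top 10 than of any other type; clusters led by Xist, or of low UMIs with no marker in the top 10, stayed unnamed. Each cell's class came from its 15 nearest control cells, at a median vote of at least 73.3%. Standardised sums used 15 bins. Scrublet called 0, 248, 3 and 9 cells, under 0.5% in 3 libraries, so it did not work there; its calls were kept. Genes were named by rule: all members, up to 4 per list with the largest absolute log2 ratio of Ikk2CA to control, the 3 most alike per member, and the sort markers; some genes the rule names are not reported here. Gm37010 overlaps Cd48, and Gm44095 Fgd5, on the same strand. Ratio and thinning code was tested on simulated data. Alternative scalings came from edgeR and DESeq2 factors only. Software was Python 3.11.15, numpy 2.4.6, scipy 1.17.1, pandas 2.3.3 and scanpy 1.11.5.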

Additional observations from a re-analysis of the deposited data

Results flagged for a closer look

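In the library sums, Emcn, Vldlr and Cd34 were lower when Jak2 V617F was added to control and higher when it was added to Ikk2CA. For Emcn the ratio was 0.544 for Jak2V617F over control and 2.36 for double over Ikk2CA, for Vldlr 0.823 and 1.81, and for Cd34 0.772 and 1.39. In class-standardised sums the same log2 ratios were −0.96 and 0.59 for Emcn, −0.31 and 0.40 for Vldlr, and −0.39 and 0.21 for Cd34. Within the stem cell-like class the pattern did not hold throughout. Vldlr was above control in Jak2V617F there, and the interval of Emcn for double over Ikk2CA held 1. Cd34 kept both directions in that class. With 1 library per genotype the difference between the 2 effects was not tested.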

How the results depend on the processing

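No paired analysis was possible because each genotype has 1 library. Of the 7 members compared, 6 were at least 2-fold lower in Ikk2CA, and 3 in class-standardised sums. Over all genes 282 were at most 0.5 of control in Ikk2CA, and 123 in class-standardised sums. With Jak2 V617F alone 0 passed 2-fold, and 1 in sums of cells thinned to 5000 UMIs, an alternative chosen after seeing the data. For double over Jak2V617F, 3 passed, and 1 with TMM and 1 with median-of-ratios factors. The share over all genes is not given for thinned sums or these factors, so nothing is read from those member counts. The count of members regaining at least 50% was 1, but 4 with a share of at least 25%, and 0 with TMM factors, relative to the median gene, without lineage clusters and in class-standardised sums; in all 4 of these Esam was no longer 2-fold lower in Ikk2CA, while its regained share was 102.8%, 101.1%, 66.7% and 51.7%. With median-of-ratios factors Esam was not 2-fold lower either, and the 1 member was Emcn, at 50.4%. Across the 113 genes at most 0.5 of control in that setting, the median regained share was 45.2%. It was 40.9% across 123 such genes with TMM factors and 40.4% across 127 relative to the median gene. The count of all genes regaining at least 50% is not given for these 3 settings, so nothing is read from their member counts. Cd34 too was not 2-fold lower in each setting where Esam was not. Its regained share was 51.6% with TMM factors, 50.8% relative to the median gene and 57.9% with median-of-ratios factors. It was 21.3% without lineage clusters and 23.7% in class-standardised sums. Over all genes the count regaining at least 50% was 55 of 282, and 172 at 25%, 25 of 166 without lineage clusters and 29 of 123 in standardised sums. Pairs found together in control at 2 or more times the expected number numbered 2, and 0 without thinning. In joint clusters 5 members were highest in the stem cell-like cluster in control, and 3 with classes from control cells. In cells of at least 5000 UMIs with no Xist UMI, double over Ikk2CA was −0.19 for Procr, −0.52 for Paqr5 and 0.80 for Emcn on the log2 scale. Without lineage clusters Procr was at −0.11. These signs differ from the library sums for Procr and Paqr5. The causes were not tested.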
